A study of Mus musculus with 4 samples.

Results

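Chemokine receptors are the sensors by which leukocytes follow gradients of small secreted proteins, the chemokines, into and out of tissue. The 9 described here are Ccr1, Ccr2, Ccr7, Ccr9, Cx3cr1, Cxcr2, Cxcr3, Cxcr4 and Cxcr6, found by exact match of their symbols among the 27998 genes of the deposited tables, and all 9 were present. Their RNA was read from droplet single-cell libraries (10x Genomics) of hepatic immune cells from C57BL/6J mice, sorted as positive for the leukocyte marker CD45 and negative for CD146, an endothelial marker. There were 2 libraries from mice on the nash-amln diet, the Amylin liver model of nonalcoholic steatohepatitis (NASH, a fatty liver with inflammation and scarring), and 2 from mice on a control diet. During tissue digestion all livers were kept with flavopiridol, which blocks transcription. The labels give no age or sex, and do not say whether a library is 1 mouse or a pool, so the spread behind each p-value is that between libraries and may be technical. Per its title, the study asked how liver myeloid cells become diverse in NASH.

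All of these receptors are seven-pass membrane proteins that signal through inhibitory G proteins. Ccr2 binds Ccl2 and draws monocytes out of bone marrow and into inflamed tissue. Cx3cr1 binds fractalkine and is known from monocytes and many tissue macrophages, and Ccr1 binds several inflammatory CC chemokines. Ccr7 guides activated dendritic cells and naive lymphocytes to lymph nodes, and Ccr9 binds Ccl25 and is carried by gut-homing T cells and plasmacytoid dendritic cells. Cxcr3 and Cxcr6 bind interferon-induced chemokines and Cxcl16 and mark effector T cells, natural killer (NK) cells and innate lymphoid cells of the liver. Cxcr2 brings neutrophils to sites of injury, and Cxcr4 binds Cxcl12 and holds many leukocytes in bone marrow.

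In mm10 (GENCODE vM21) all 9 genes are protein-coding, and 5 of them lie on chromosome 9: Ccr1 (chr9:123962124-123968692, minus strand), Ccr2 (chr9:124101950-124113557, plus strand), Ccr9 (chr9:123678439-123784330, plus strand), Cxcr6 (chr9:123806475-123811760, plus strand) and Cx3cr1 (chr9:119901616-120069879, minus strand). Cxcr2 (chr1:74153989-74161246, plus strand) and Cxcr4 (chr1:128588199-128592293, minus strand) lie on chromosome 1, Ccr7 (chr11:99144196-99155077, minus strand) on chromosome 11 and Cxcr3 (chrX:101731535-101734269, minus strand) on chromosome X. The sources used here do not say whether reads were counted by strand. It is thus not known here whether reads were kept apart where a neighbour overlaps an exon on the other strand. Such neighbours are Fyco1 for Cxcr6, Wdr48 for Cx3cr1 and Slc6a20a for Ccr9.

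The kept cells numbered 1572 and 1859 in the NASH libraries and 1307 and 1420 in the control libraries, and they held a median of 7585 and 7417 unique molecular identifiers (UMIs, 1 count per captured transcript) in NASH against 3381 and 3050 in control. The cell filters removed 2.87% and 2.38% of the NASH barcodes and 14.8% and 20.4% of the control barcodes. Pairs of libraries shared 2 to 8 barcodes. Cells were clustered without the 9 receptors, and clusters were named from markers that hold none of them. Macrophage-like cells were the most numerous class, with 743 and 1033 cells in NASH and 991 and 867 in control, and all 15 of their markers were detected in at least 25% of the cells. The control libraries stood apart from each other in this class, with 781 of the control 1 cells in a cluster led by Fkbp5, Lepr and Ptgis and 749 of the control 2 cells in a cluster led by Cxcl13, Marco and Hmox1. Endothelial-like, hepatocyte-like and cholangiocyte-like cells were also found despite the sort. Some names rest on partial marker sets. Markers detected in at least 25% of the cells numbered 11 of 16 in monocyte-like, 8 of 13 in T cell-like and 10 of 14 in NK cell or ILC1-like cells. They numbered 7 of 10 in type 2 conventional dendritic cells, 11 of 12 in B cell-like and 10 of 11 in both mature DC-like and neutrophil-like cells. The other named classes had all of theirs. Levels are given as CPM, the receptor's UMIs per 1000000 UMIs of a class in a library, and compare cells for 1 receptor, not receptors with each other.

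Ccr7 and Ccr9 were each found mainly in 1 cell class, and Cxcr2 at its highest in neutrophil-like cells. Cxcr6 was at its highest in T cell-like and NK cell or ILC1-like cells. Cxcr3 had its highest mean in NK cell or ILC1-like cells, and in NASH the T cell-like and plasmacytoid dendritic cell-like ranges overlapped theirs. Cx3cr1 was found across myeloid cells, and Ccr2 across myeloid, T cell-like and NK cell or ILC1-like cells. Cxcr4 was at low levels in most classes. Ccr2 stood highest in monocyte-like cells, with 767 and 708 CPM in NASH and 468 and 781 CPM in control, where the control values rest on 8 and 12 cells. Next came conventional dendritic cells type 2 (cDC2-like), with 473 and 477 CPM in NASH and 248 and 553 CPM in control, and conventional dendritic cells type 1 (cDC1-like), with 321 and 441 CPM in NASH and 201 and 395 CPM in control. In NASH the monocyte-like values lay above both dendritic classes and cDC2-like above cDC1-like, while in control the cDC2-like range overlapped both others and the monocyte-like range lay above the cDC1-like one. Ccr2 was also found outside these classes, with a mean of 115 CPM in NASH and 169 CPM in control in T cell-like cells. The means were 110 and 88.4 CPM in NK cell or ILC1-like cells and 133 and 96.8 CPM in plasmacytoid dendritic cell-like cells. The macrophage-like means lay below these, at 87.8 CPM in NASH and 13.1 CPM in control. In NASH, though, the T cell-like and NK cell or ILC1-like ranges spanned the macrophage-like values. A UMI of Ccr2 was found in 84.6% and 87.2% of NASH monocyte-like cells. The shares were 33.3% and 17.4% in NASH endothelial-like cells, which should lack the gene. Median depths were alike, at 6679 and 6232 UMIs in NASH monocyte-like and 6368 and 6552 UMIs in NASH endothelial-like cells. With each cell thinned to 1000 UMIs, endothelial-like cells with a Ccr2 UMI made up 4.44% and 0% in NASH and 2.08% and 3.74% in control, against 45.6% and 48.2% of NASH monocyte-like cells.

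**Figure D1:**
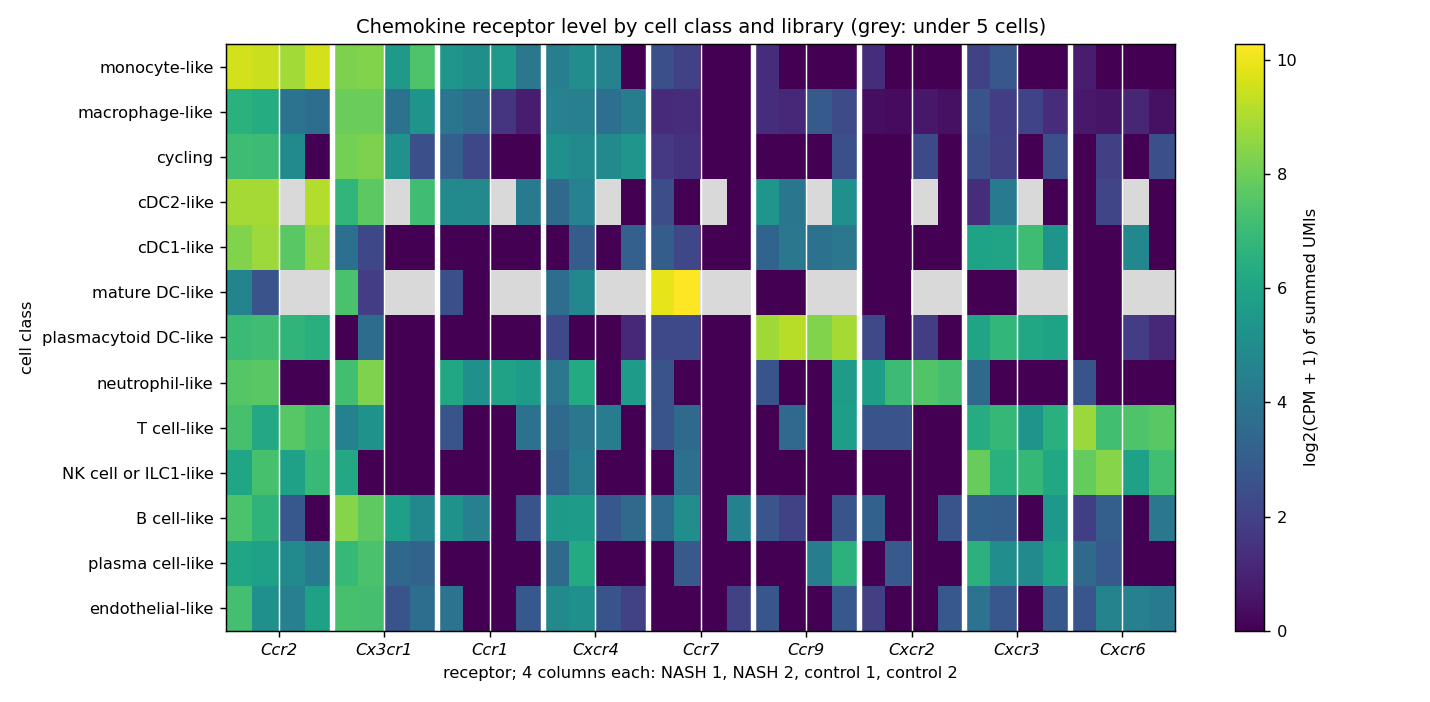
Level of the 9 receptors, as log2(CPM + 1) of summed UMIs, in 13 cell classes (rows) and the 4 libraries (4 columns per receptor, NASH 1 and 2 left of control 1 and 2), with classes of under 5 cells in grey. Ccr7 is bright in mature DC-like cells, Ccr9 in plasmacytoid DC-like cells and Cxcr2 in neutrophil-like cells. Ccr2 is spread over monocyte-like, dendritic, T cell-like and NK cell or ILC1-like classes, and Cx3cr1 differs between diets in most rows where it is seen.

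Cx3cr1 was highest in NASH monocyte-like cells, with 305 and 322 CPM against 44.6 and 175 CPM in control. NASH cycling cells, a C1q-high cluster led by Top2a, Birc5 and Ube2c, had 279 and 306 CPM, against 36.0 and 4.65 CPM in control, and NASH macrophage-like cells 247 and 251 CPM, against 13.8 and 39.4 CPM in control. In NASH the monocyte-like and cycling ranges overlapped, macrophage-like cells lay below both, and B cell-like cells spanned them at 336 and 211 CPM. Plasmacytoid dendritic cell-like and T cell-like cells were among the lowest, with 0 and 11.5 CPM in NASH plasmacytoid dendritic cell-like cells against 0 and 0 CPM in control, and 21.7 and 36.7 CPM in NASH T cell-like cells against 0 and 0 CPM in control. Ccr1 was low throughout, with 68.8 and 34.7 CPM in NASH neutrophil-like cells against 59.3 and 50.6 CPM in control, and 40.7 and 33.9 CPM in NASH monocyte-like cells against 44.6 and 15.9 CPM in control. These classes overlapped, and no Ccr1 UMI was found in cDC1-like, plasmacytoid dendritic cell-like, plasma cell-like or NK cell or ILC1-like cells of any library.

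Ccr7 and Ccr9 were each concentrated in a single dendritic class. In mature DC-like cells, which carry Fscn1 and Ccl22, Ccr7 reached 949 and 1244 CPM in NASH, with a UMI in 94.3% and 100% of 53 and 42 cells. Control 2 held 4 such cells with 13 Ccr7 UMIs and control 1 none, so no test between diets could be made. These cells made up 3.4% and 2.3% of the NASH cells and held 91.7% and 89.7% of all Ccr7 UMIs there. The next class was B cell-like, with 10.9 and 31.9 CPM in NASH and 0 and 21.8 CPM in control. Ccr9 stood at 444 and 574 CPM in NASH plasmacytoid dendritic cell-like cells and at 318 and 476 CPM in control. They held 69.4% and 77.7% of the Ccr9 UMIs of the NASH libraries and 77.6% and 90.9% of those of the control libraries. The second NASH class, cDC2-like, had 41.2 and 15.5 CPM, against 0 and 34.6 CPM in control from 3 and 10 cells. Plasma cell-like cells gave 0 and 0 CPM in NASH and 19.5 and 96.5 CPM in control, the control values from 2 and 11 UMIs.

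Cxcr3 and Cxcr6 were both found in T cell-like and NK cell or ILC1-like cells, and Cxcr3 also in dendritic classes and plasma cell-like cells. Clusters left unnamed, with 279 cells in NASH and 81 in control, also held both. They had 74 of the 290 Cxcr6 UMIs and 62 of the 372 Cxcr3 UMIs of the NASH libraries. In control they had 5 of 59 and 5 of 144. Cxcr6 had 428 and 141 CPM in NASH T cell-like cells against 174 and 197 CPM in control, and 227 and 340 CPM in NASH NK cell or ILC1-like cells against 57.4 and 143 CPM in control, the last from 1 and 6 UMIs. The NASH ranges of these 2 classes overlapped. In cDC1-like cells Cxcr6 had no UMI in NASH and 2 in control. Cxcr3 had 235 and 89.9 CPM in NASH NK cell or ILC1-like cells against 115 and 71.6 CPM in control, and 81.3 and 115 CPM in NASH T cell-like cells against 38.7 and 92.0 CPM in control. It was also found in cDC1-like cells at 60.7 and 63.8 CPM in NASH against 134 and 39.5 CPM in control, and in plasmacytoid dendritic cell-like cells at 64.0 and 111 CPM in NASH against 68.3 and 61.6 CPM in control. Plasma cell-like cells had 96.5 and 32.0 CPM of Cxcr3 in NASH, from 14 UMIs, against 29.2 and 61.4 CPM in control, from 10 UMIs. Among NASH T cell-like cells with a Cxcr3 UMI, 53.8% and 33.3% also had a Cxcr6 UMI. Among those without one the share was 60.0% and 35.3%.

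Cxcr2 stood highest in neutrophil-like cells, at 52.9 and 130 CPM in NASH against 178 and 152 CPM in control. These cells held 10 of 22 and 15 of 19 Cxcr2 UMIs of the NASH libraries and 3 of 7 and 3 of 10 of the control libraries. This rests on 25 UMIs in 39 NASH cells and 6 UMIs in 16 control cells. The NASH cells of this class also had means of 195 CPM of Ccr2 and 227 CPM of Cx3cr1, against 0 CPM of both in control. Part of them carried macrophage RNA, as described below. Such RNA counts among the UMIs by which CPM divides, and its part in the Cxcr2, Ccr1 and Cxcr4 levels here was not tested. Cxcr4 was spread at low levels over most classes. In NASH it ran from 46.4 and 48.6 CPM in B cell-like cells over 34.6 and 29.1 CPM in cycling and 22.4 and 21.4 CPM in macrophage-like cells to 3.77 and 0 CPM in plasmacytoid dendritic cell-like cells, and macrophage-like cells held 50.5% and 48.2% of its UMIs. In control these classes had 6.06 and 10.9, 28.0 and 41.8, 12.7 and 18.8, and 0 and 1.28 CPM. NASH neutrophil-like cells, at 15.9 and 78.0 CPM, and plasma cell-like cells, at 10.7 and 76.7 CPM, spanned this range. The 10 hepatocyte-like cells, all of control 1, held no Cxcr4 UMI. By a limit of 3 counts this allows up to 30% of such cells to hold a UMI, and it says nothing of how many express the gene.

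**Figure D2:**
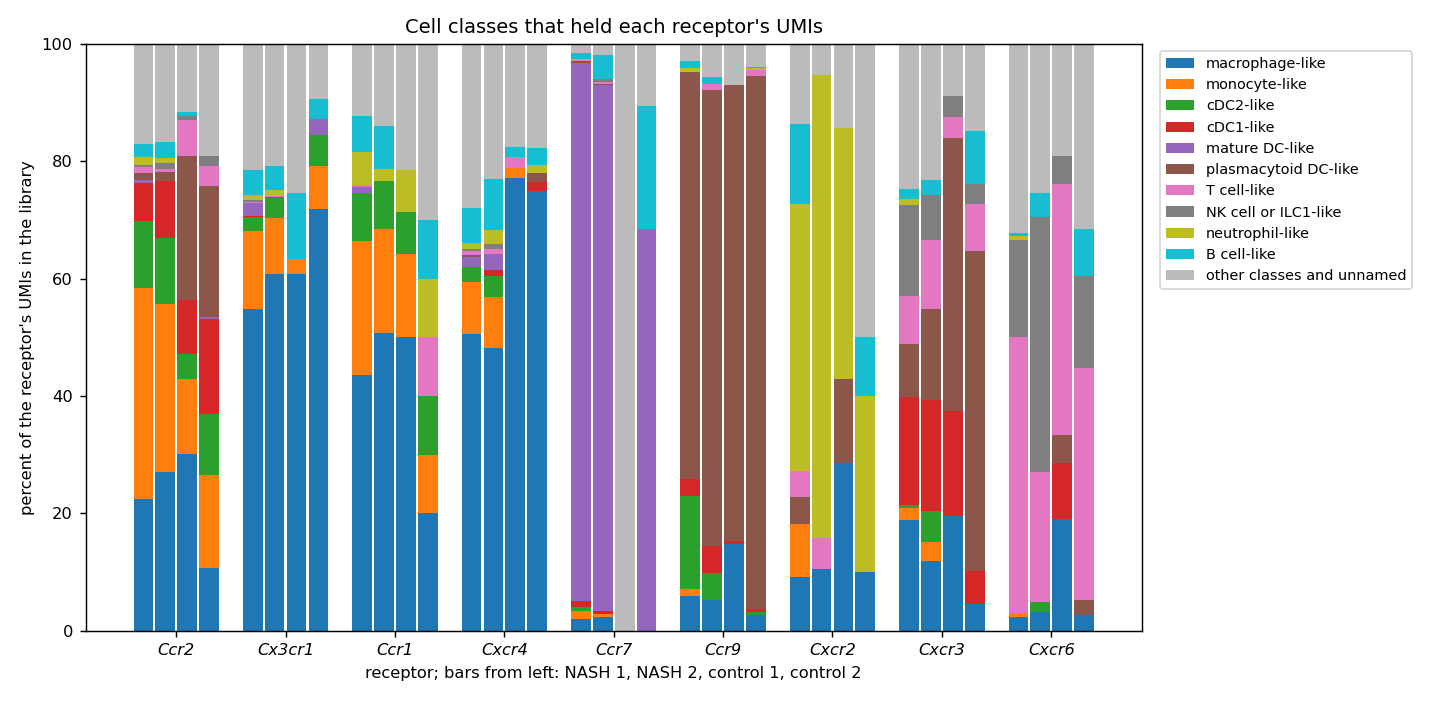
Share of each receptor's UMIs (percent of the library's total for that receptor, vertical axis) held by each cell class, with 4 bars per receptor, NASH 1 and 2 left of control 1 and 2. Macrophage-like cells hold 54.8% and 60.8% of the Cx3cr1 UMIs in NASH and 60.8% and 71.8% in control, mature DC-like cells hold most Ccr7 and plasmacytoid DC-like cells most Ccr9. The bar of Ccr7 in control 1 is a single UMI.

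The comparison between diets asked which receptors differed within a class, and in macrophage-like cells 4 were called higher and 1 lower. Ccr2 had 94.2 and 81.3 CPM in NASH, against 14.1 and 12.1 CPM in control. Both NASH libraries lay above both control libraries, and the log2 fold change was 3.10 (SE 0.179, edgeR adjusted p = 3.16e-06). Cx3cr1, at the levels given above, had a log2 fold change of 3.63 (SE 0.504, edgeR adjusted p = 0.00772). It did not pass without NASH 1 (log2 3.64, edgeR adjusted p = 0.142) or without NASH 2 (log2 3.64, edgeR adjusted p = 0.137). It was log2 3.03 without control 1 and 4.54 without control 2. Ccr1 had 15.4 and 11.8 CPM in NASH, from 100 and 98 UMIs, against 2.02 and 0.736 CPM in control, from 7 and 2 UMIs. Its log2 fold change was 3.57 (SE 0.408, edgeR adjusted p = 0.000122), and 4.52 without control 1, where 2 control UMIs remained.

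The 6 receptors that passed the filter on low counts in macrophage-like sums were these 5 called ones and Cxcr3, and 44.1% of the 10322 genes tested there were called. Of all genes tested, 23.0% were called higher and 21.1% lower. Cxcr4 had 22.4 and 21.4 CPM in NASH, against 12.7 and 18.8 CPM in control. The groups did not overlap but lay close, and the log2 fold change was 0.87 (SE 0.213, edgeR adjusted p = 0.00737). Scaled by library totals alone, a setting that lowered the median of all genes to -0.40 on the log2 scale, it was 0.50 (edgeR adjusted p = 0.0753), and without control 1 it was 0.59 (edgeR adjusted p = 0.0644). Cxcr3 had 5.38 and 2.65 CPM in NASH, against 3.17 and 1.47 CPM in control, with overlapping groups (log2 1.07, SE 0.523, edgeR adjusted p = 0.121). Without NASH 2 it passed (log2 1.55, edgeR adjusted p = 0.0406).

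Ccr9 was the receptor called lower, with 1.54 and 1.21 CPM in NASH, from 10 and 10 UMIs. In control it had 6.62 and 4.05 CPM, from 23 and 11 UMIs. Ccr9 passed the filter on low counts through the control libraries alone, where it was higher, so its call is by itself no support for a fall. The log2 fold change was -1.62 (SE 0.431, edgeR adjusted p = 0.0115). It was -1.41 without NASH 2 (edgeR adjusted p = 0.0927) and -1.20 without control 1 (edgeR adjusted p = 0.173), and did not pass in either. Of the 20 NASH UMIs, 10 lay in a cluster of 15 cells led by Slc7a2, Cd300c and Sort1, and Cd300c is on the list of plasmacytoid dendritic cell markers. Plasmacytoid markers summed to 1304 and 1766 CPM in NASH macrophage-like cells and to 1426 and 1199 CPM in control, and their part in the Ccr9 values was not tested. Ccr7, Cxcr2 and Cxcr6 did not pass the filter in this class. Ccr7 had 9 and 12 UMIs in NASH and 0 and 0 in control, a level at least 2.93-fold higher in NASH against a floor of 3 counts over the control libraries.

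**Figure D3:**
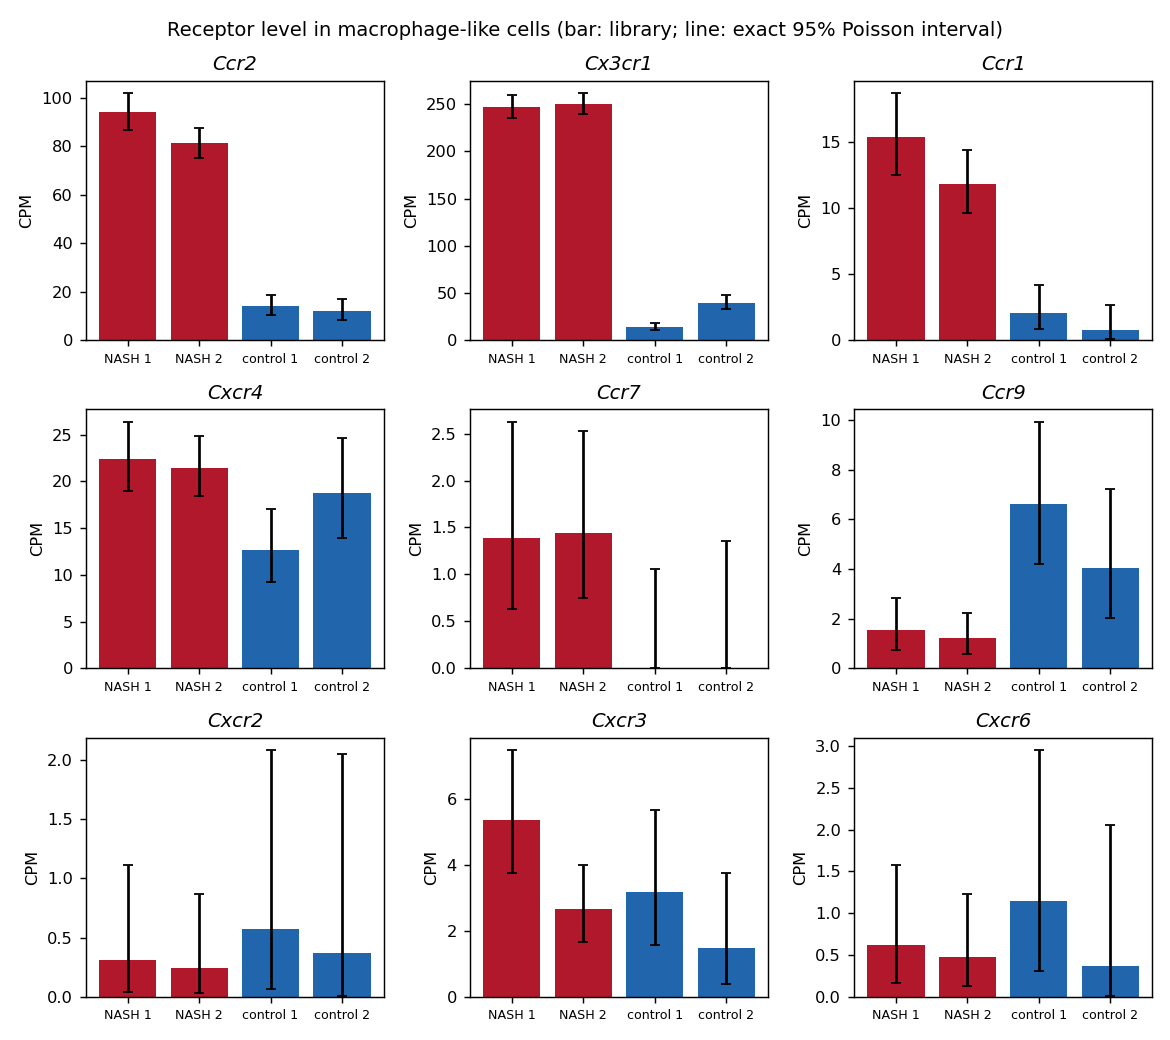
CPM of each receptor in macrophage-like cells, with 1 bar per library (NASH red, left of control blue) and exact 95% Poisson intervals that cover counting error only. The NASH bars of Ccr2, Cx3cr1 and Ccr1 stand clear of the control bars, and those of Ccr9 stand below them. Those of Cxcr2, Cxcr3, Cxcr4 and Cxcr6 lie within the intervals of at least 1 control library.

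Sequence is shown for the receptors called in macrophage-like cells whose upstream window lay outside every annotated exon of the same gene. These were Ccr1 and Cxcr4, and exons of other genes were not checked. The 250 bases before the RefSeq start (GRCm38.p6) are printed 5′ to 3′ on the gene's strand, with matches to any of 5 motifs searched on both strands in capitals. The motifs were the PU.1 core GAGGAA, RUNX TGTGGT, AP-1 TGANTCA, C/EBP TTGCNNAA and IRF, which is GAAA, any 2 bases and GAAA again.
Ccr1, chr9:123968693-123968942, minus strand: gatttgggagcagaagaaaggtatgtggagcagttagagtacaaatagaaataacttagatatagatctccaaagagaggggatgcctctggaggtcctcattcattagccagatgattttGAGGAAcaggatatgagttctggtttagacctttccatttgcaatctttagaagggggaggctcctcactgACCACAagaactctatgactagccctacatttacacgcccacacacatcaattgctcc
Cxcr4, chr1:128592300-128592549, minus strand: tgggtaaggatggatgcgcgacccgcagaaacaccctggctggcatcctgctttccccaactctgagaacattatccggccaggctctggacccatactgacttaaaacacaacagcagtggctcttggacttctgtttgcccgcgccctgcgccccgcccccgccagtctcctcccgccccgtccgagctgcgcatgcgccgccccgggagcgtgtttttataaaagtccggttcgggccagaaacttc
The Ccr1 window held the PU.1 core 129 bases before the start, and RUNX on the reverse strand, so printed as its complement, 58 bases before it. None of the 5 motifs was found in the Cxcr4 window. Of 32851 promoter windows of the same length, 23.3% held the PU.1 core, 14.1% RUNX, 6.75% AP-1, 9.56% C/EBP and 2.98% IRF, so a match describes letters and not a bound site.

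Within macrophage-like cells, Cx3cr1 and Ccr2 were unevenly spread over clusters, and NASH and control cells lay mostly in different clusters. The cluster led by Clps, Olfml3 and Tmem119 had 623 and 639 CPM of Cx3cr1 in NASH, from 143 and 249 cells, against 579 CPM in the 31 cells of control 2. Ccr2 there was at 286 and 247 CPM in NASH, against 145 CPM in control 2. The cluster led by Gpnmb, Cd63 and H2-M2, which held 175 and 143 NASH cells and no control cell, had 344 and 360 CPM of Cx3cr1 and 107 and 91.9 CPM of Ccr2. A further 268 and 307 NASH cells led by Mmp12, Mmp13 and Il1rn had 110 and 121 CPM of Cx3cr1 and 20.8 and 18.0 CPM of Ccr2. NASH cells of the cluster led by Folr2, Apoc1 and Ccl2 had 29.8 and 56.1 CPM of Cx3cr1 and 29.1 and 21.6 CPM of Ccr2. The main control clusters were lower or similar, with 7.45 and 25.8 CPM of Cx3cr1 in the Fkbp5 cluster and 1.78 and 6.49 CPM in the Marco cluster.

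Clec4f, a lectin of Kupffer cells, had a UMI in 43.9% of the NASH cells of the Clps cluster and in 47.2% of those of the Gpnmb cluster, against 93.0% in the Mmp12 and 99.8% in the Folr2 cluster. The clusters high in Cx3cr1 and Ccr2 were thus the ones with the lower Clec4f shares. Ccr1 and Cxcr4 were also higher in these clusters than in the Folr2 cluster. Ccr1 ran from 28.0 and 15.1 CPM in the NASH cells of the Clps cluster and 21.3 and 26.0 CPM in the Gpnmb cluster to 7.28 and 5.39 CPM in the Folr2 cluster. Cxcr4 ran from 26.3 and 29.1 CPM and 30.5 and 26.0 CPM in the first 2 of these to 10.9 and 14.0 CPM in the Folr2 cluster. The clusters were drawn on the same cells, so these differences are a description with no test.

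**Figure D4:**
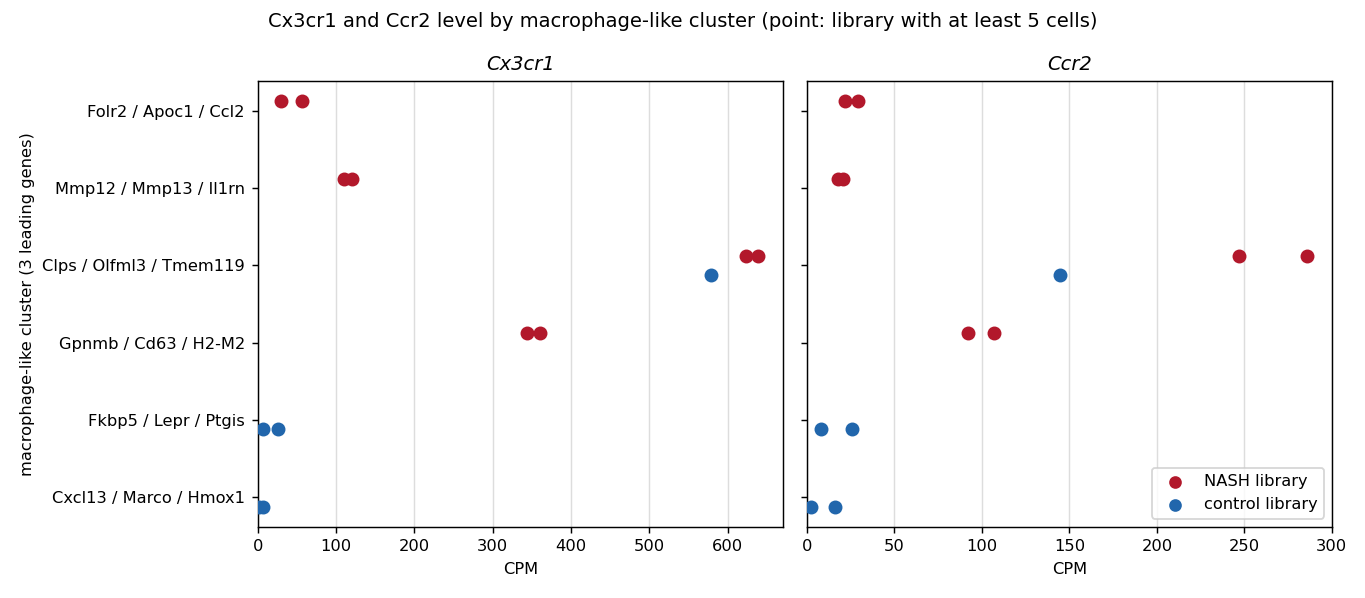
Cx3cr1 (left) and Ccr2 (right) in CPM for each macrophage-like cluster of at least 100 cells, named by its 3 leading genes, with 1 point per library holding at least 5 cells (NASH red, drawn above control blue). The Clps cluster stands farthest right in both panels, also in the control 2 library, and the Gpnmb cluster comes next in Cx3cr1 at 344 and 360 CPM.

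Ccr2 and Cx3cr1 UMIs fell in the same macrophage-like cells more often than the product of their shares. In NASH 1, 154 cells held both, against 99.2 from the product, and in NASH 2 185 cells, against 103. In control 1 the numbers were 5 against 0.615 and in control 2 10 against 0.810. Among NASH cells with a Ccr2 UMI, 69.4% and 78.4% had a Cx3cr1 UMI. In monocyte-like cells the joint numbers were nearer to the product, with 109 against 103 in NASH 1 and 88 against 84.6 in NASH 2. Deep cells hold more UMIs of every gene, and the part of depth in the joint numbers was not tested.

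Outside macrophage-like cells the diet calls were fewer, and with all cells of a class they were all of Ccr2, Cx3cr1 or Cxcr4. In cycling cells, where 24.2% of 6293 genes were called (13.3% higher, 10.9% lower), Ccr2 (log2 3.43, SE 0.498, edgeR adjusted p = 0.000262) and Cx3cr1 (log2 4.05, SE 0.378, edgeR adjusted p = 3.85e-06) rose. Ccr2 was not called by DESeq2 (adjusted p = 0.106), and its control level rests on 7 UMIs in control 1 and 0 in control 2. Without control 2 the log2 fold change of Ccr2 was 2.53. That of Cx3cr1, with 9 and 1 control UMIs, was 3.30 without control 2 and 6.23 without control 1, where 1 control UMI remained, and both receptors passed in each fit that left out a library. Cxcr4 did not pass there, with 34.6 and 29.1 CPM in NASH and 28.0 and 41.8 CPM in control (edgeR adjusted p = 0.790). In plasmacytoid dendritic cell-like cells 3 receptors passed the filter and 0 were called by edgeR or by DESeq2, with 2.47% of 3527 genes called (0.284% higher, 2.18% lower) and 0 of the 3 at an unadjusted edgeR p under 0.05. Ccr9, the receptor this class carries, differed by log2 0.23 (SE 0.177, edgeR adjusted p = 0.689), with overlapping groups, Ccr2 by log2 0.39 (SE 0.237) and Cxcr3 by log2 0.35 (SE 0.306). In T cell-like cells, with 1.23% of 1701 genes called (0.412% higher, 0.823% lower), again 0 of 3 were called by edgeR or DESeq2 and 0 had an unadjusted edgeR p under 0.05. Cxcr6 differed by log2 0.63 (SE 0.579), Cxcr3 by log2 0.53 (SE 0.539) and Ccr2 by log2 -0.48 (SE 0.462).

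Monocyte-like cells, the class richest in Ccr2, had 8 and 12 control cells. They were tested, as were NK cell or ILC1-like, cDC1-like, neutrophil-like and plasma cell-like cells, under a minimum of 5 cells per library that was added after the cell numbers were seen. There 1.70% of 5114 genes (0.782% higher, 0.919% lower) and 0 of 4 receptors were called by edgeR, with 1 receptor at an unadjusted edgeR p under 0.05 and 0 called by DESeq2. Ccr2 differed by log2 0.33 (SE 0.257, edgeR adjusted p = 0.662) and Cx3cr1 by log2 1.51 (SE 0.403, edgeR adjusted p = 0.0883). Without control 2 both passed, at log2 1.02 for Ccr2 (edgeR adjusted p = 0.0174) and log2 3.17 for Cx3cr1 (edgeR adjusted p = 0.000352). In cDC1-like cells, with 2.30% of 3355 genes called (0.596% higher, 1.70% lower), neither Ccr2 (log2 0.19, SE 0.244) nor Cxcr3 (log2 -0.35, SE 0.467) passed. In neutrophil-like cells, with 6.85% of 949 genes called (3.06% higher, 3.79% lower), Cxcr2 did not pass (log2 -0.68, SE 0.683, edgeR adjusted p = 0.532).

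B cell-like, plasma cell-like, neutrophil-like and endothelial-like cells also gave calls, and in these classes the receptor UMIs were found with macrophage RNA. In B cell-like cells Cx3cr1 had 336 and 211 CPM in NASH and 54.6 and 27.2 CPM in control (log2 2.56, SE 0.388, edgeR adjusted p = 0.000216). Cxcr4 had a log2 fold change of 2.26 (SE 0.645, edgeR adjusted p = 0.0239), a call that ended without control 1 (log2 1.95) or control 2 (log2 2.65). It did not pass the filter without either NASH library, and DESeq2 did not call it. Ccr2 had 61 and 67 UMIs in NASH against 1 and 0 in control. Its pooled CPM was 43.6 times that of control, with a counting interval of 7.68 to 1734 and edgeR adjusted p = 0.000186. Both Ccr2 and Cxcr4 passed the filter on low counts through the NASH libraries alone, so their calls are by themselves no support for a rise. In this class 17.6% of 2985 genes were called, 9.38% higher and 8.21% lower. All 12 B cell markers summed to 4578 and 4860 CPM in NASH and 8882 and 8915 CPM in control, while the macrophage markers summed to 8875 and 6972 CPM in NASH and 1588 and 1349 CPM in control.

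Cells outside the macrophage-like and cycling classes were divided, after the data were seen, by whether C1qa, C1qb and C1qc held at least 10% of the share they hold in the median macrophage-like cell of the library. Of the NASH B cell-like cells, 53 were at or over this limit and had a median of 10227 UMIs, and 93 were under it with a median of 4126 UMIs. The C1q-high ones held 247 Cx3cr1 UMIs (455 CPM) and the others 15 (31.1 CPM). In mature DC-like cells of NASH, 12 C1q-high cells held 67 of the 68 Cx3cr1 UMIs, while the 83 others held 796 of the 861 Ccr7 UMIs. Within a factor of 2 of the limit lay 5 of the 93 and 4 of the 53 NASH cells, against 20 of 86 and 7 of 11 control cells. Ccr2 was less tied to C1q, with 40 UMIs (83.0 CPM) in the 93 NASH B cell-like cells under the limit and 0 UMIs in the 86 such control cells, at least 8.58-fold higher in NASH against a floor of 3 counts over the control libraries.

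**Figure D5:**
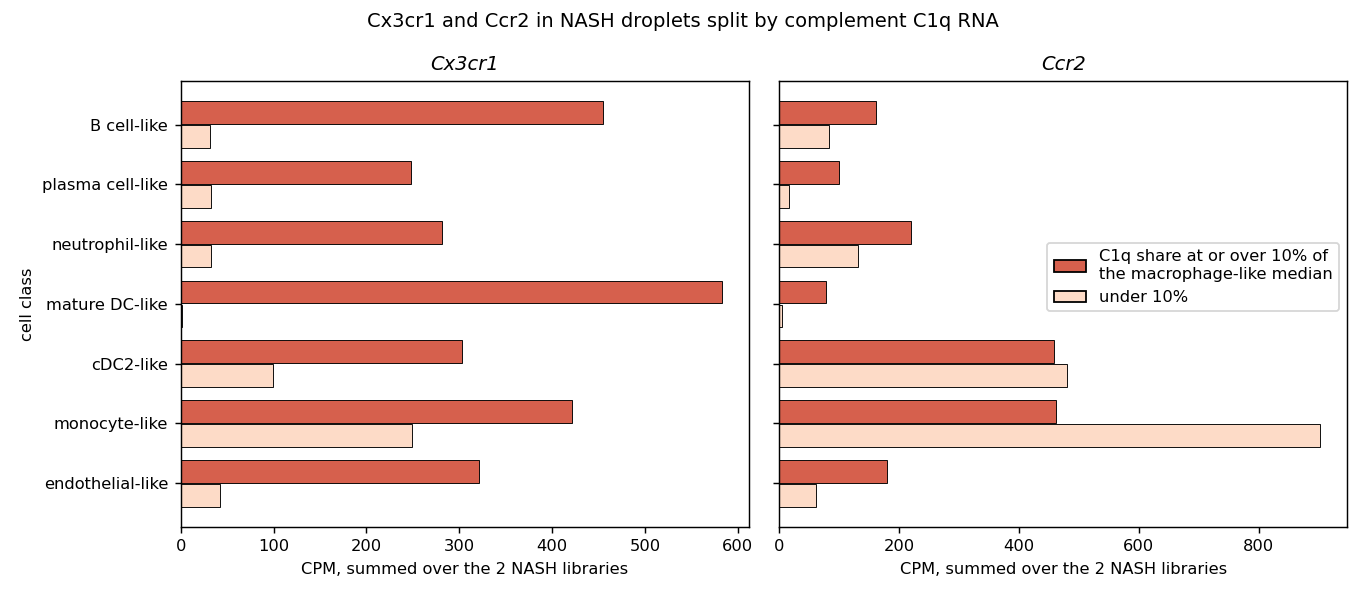
Cx3cr1 (left) and Ccr2 (right) in CPM summed over the 2 NASH libraries, in cells whose C1q share is at or over 10% of the macrophage-like median (dark) and in the others (light), for 7 classes. Cx3cr1 is higher in the dark bars in all 7 classes, such as 455 against 31.1 CPM in B cell-like cells, and Ccr2 is higher in the light bars in monocyte-like and cDC2-like cells.

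Without the C1q-high droplets, Cx3cr1 and Cxcr4 no longer passed the filter in B cell-like cells, and no receptor passed it in endothelial-like cells. The endothelial-like call of Cx3cr1 had been log2 4.03 (SE 0.472, edgeR adjusted p = 0.000199), with 9.35% of 4170 genes called (4.72% higher, 4.63% lower). Its log2 fold change was 4.82 without control 2, where 1 control UMI remained. In that class Cx3cr1 had passed the filter through the NASH libraries alone. Ccr2 there had passed only without NASH 2 (edgeR adjusted p = 0.0045) or without control 2 (edgeR adjusted p = 0.0163) among the fits that leave out a library. Ccr2 in B cell-like cells, the only receptor that passed the filter there, did so through the NASH libraries alone, with no control UMI left. Its call (edgeR adjusted p = 0.00347), in cells divided after the data were seen, is thus no support for a rise. The Cx3cr1 call in plasma cell-like cells (6.31% of 1300 genes called, 3.92% higher and 2.38% lower) had edgeR adjusted p = 0.00608, was not made without NASH 2, and came with 32 of 36 NASH UMIs in 8 C1q-high cells. The Ccr2 call in neutrophil-like cells (edgeR adjusted p = 0.0464, at least 2.37-fold higher in NASH, with 0 UMIs in control) came with 47 of 59 NASH UMIs in 23 such cells. In both the plasma cell-like and the neutrophil-like class the called gene passed the filter through the NASH libraries alone. The neutrophil-like call of Ccr2 ended without control 2, and Ccr2 did not pass the filter there without either NASH library. In NK cell or ILC1-like cells 3.46% of 1068 genes were called (1.03% higher, 2.43% lower). Cxcr6 was not called with all cells (log2 1.27, SE 0.544, edgeR adjusted p = 0.196). The low-C1q cells held 80 Cxcr6 UMIs in NASH and 1 in control. Their pooled CPM in NASH was 14.4 times that of control, with a counting interval of 2.51 to 576. The division, drawn after the data were seen, had put 6 of the 7 control UMIs among 5 C1q-high cells. The edgeR adjusted p of 0.00975 without the C1q-high cells rests on that removal and is no support for a diet effect.

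Whether a diet effect differed between classes was tested directly for macrophage-like cells against each other class with at least 10 cells per library, in 1 model with the library as block. The rise of Ccr2 was larger than in T cell-like cells by log2 3.25 (SE 0.549, edgeR adjusted p = 2.20e-06) and larger than in plasmacytoid dendritic cell-like cells by log2 2.64 (SE 0.326, edgeR adjusted p = 1.85e-13). The background of called genes was 0.908% in the T cell-like and 8.51% in the plasmacytoid comparison. The T cell-like difference did not pass without control 1 (log2 3.25, edgeR adjusted p = 0.12) or control 2 (log2 3.32, edgeR adjusted p = 0.0519). For Ccr9 the diet effect in macrophage-like cells was lower than in plasmacytoid dendritic cell-like cells by log2 -2.02 (SE 0.441, edgeR adjusted p = 0.000200), and this did not pass without control 1 (log2 -1.29, edgeR adjusted p = 0.228). Against cycling cells neither Ccr2 (log2 -0.48, SE 0.558, edgeR adjusted p = 0.889) nor Cx3cr1 (log2 -0.53, SE 0.452, edgeR adjusted p = 0.837) passed, with 0.364% of genes called. Ccr2 also did not differ past the threshold against B cell-like cells (log2 -2.36, SE 1.14, edgeR adjusted p = 0.211, 8.38% of genes called) or endothelial-like cells (log2 1.85, SE 0.601, edgeR adjusted p = 0.124, 2.62% called).

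Summed over all kept cells, which takes in the numbers of each cell class, 5 receptors rose and 1 fell, and all 9 passed the filter. Of the 12124 genes tested 34.8% were called, 18.2% higher and 16.6% lower. Ccr7 had 32.8 and 33.9 CPM in NASH against 0.198 and 3.80 CPM in control (log2 4.34, SE 0.641, edgeR adjusted p = 0.0101), beside 53 and 42 mature DC-like cells in NASH and 0 and 4 in control. Ccr9 went to 12.8 and 12.7 CPM in NASH against 30.9 and 81.5 CPM in control (log2 -1.85, SE 0.479, edgeR adjusted p = 0.0437), beside 48 and 51 plasmacytoid dendritic cell-like cells in NASH and 75 and 171 in control. Within such a sum, fewer cells of a type and less RNA per cell cannot be told apart. Both calls ended without NASH 1 (edgeR adjusted p = 0.0784 for Ccr7 and 0.197 for Ccr9) and without NASH 2 (0.0702 and 0.191). Without control 1 the log2 fold change of Ccr7 was 3.43, and without control 2 that of Ccr9 was -1.0.

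Ccr2 in the same sums had 205 and 164 CPM in NASH against 32.3 and 61.8 CPM in control (log2 2.26, edgeR adjusted p = 0.00869), Cx3cr1 221 and 226 CPM against 15.7 and 29.8 CPM in control (log2 3.59, edgeR adjusted p = 0.00193). Ccr1 (log2 2.93, edgeR adjusted p = 0.00184) and Cxcr4 (log2 1.18, edgeR adjusted p = 0.00376) also passed. Cxcr6 did not (log2 1.10, SE 0.362, edgeR adjusted p = 0.0563), and passed without control 2 (log2 1.59, edgeR adjusted p = 0.0212). Neither Cxcr3 (log2 0.16, SE 0.234) nor Cxcr2 (log2 0.06, SE 0.452) passed, their groups overlapped, and both differences turned negative when scaled by library totals alone (-0.13 and -0.22). Both Ccr2 and Cx3cr1 were thus called higher in the whole sort as well as in macrophage-like cells. The rise of Ccr7 was carried by cells that made up 3.4% and 2.3% of the NASH libraries. The 5215 NASH UMIs of Ccr2 included 1692 from the monocyte-like and 1288 from the macrophage-like class. In control, 472 UMIs included 70 and 82. Monocyte-like cells numbered 182 and 141 in NASH and 8 and 12 in control. The part of cell numbers in the whole-sort rise of Ccr2 was not tested.

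The ligands of these receptors, their relatives and their signalling partners were counted in macrophage-like cells from lists chosen with earlier results of these data known. Of 23 listed chemokines read by the 9 receptors, 16 were tested, 6 rose and 1 fell, beside 23.0% called higher and 21.1% lower of all genes tested, with a median log2 fold change of 0.98 against -0.02 over all genes tested. Ccl12, a mouse ligand of Ccr2, had 15.2 and 18.4 CPM in NASH against 0.864 and 2.94 CPM in control (log2 3.59). Ccl5 and Ccl9, ligands of Ccr1 among others, had log2 fold changes of 2.00 and 1.10, and Cxcl9, a ligand of Cxcr3, of 1.84. Cxcl16, the ligand of Cxcr6, had 482 and 464 CPM in NASH against 253 and 424 CPM in control (log2 0.86, edgeR adjusted p = 0.0147). The Ccr2 ligands Ccl2 (log2 1.48, edgeR adjusted p = 0.0949) and Ccl7 (log2 1.76, edgeR adjusted p = 0.213) did not pass.

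Of 15 other chemokine receptors, 4 were tested in macrophage-like cells, 0 rose and 2 fell, with a median of -0.50, beside the same 23.0% and 21.1% of all genes. Cmklr1, the chemerin receptor, had 38.3 and 30.01 CPM in NASH against 105 and 90.5 CPM in control (log2 -1.15, edgeR adjusted p = 0.000396), and Ccr3, the eotaxin receptor, 2.00 and 2.89 CPM against 10.4 and 26.1 CPM in control (log2 -2.46). Ccrl2, an atypical receptor that binds chemerin, did not pass (log2 0.14, edgeR adjusted p = 0.608). Of 21 signalling and desensitisation genes, 20 were tested, 4 rose and 4 fell, with a median of -0.18, a share near the 23.0% called higher and 21.1% called lower of all genes and so no result about the list. Rgs10, which shortens G protein signals, rose by log2 1.42 and the G protein subunit Gng5 by 0.85. Adrbk1 (Grk2), a kinase that desensitises receptors, had a log2 fold change of -1.04, and the inhibitory subunit Gnai3 of -0.76.

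Over 23 class-by-diet sums of at least 20 cells, the genes most like each receptor were found among 5920 genes by Pearson correlation of log2(CPM + 1), given as a description. For Cx3cr1 they were Trem2 (r = 0.92), Apoe (0.89) and Fcgr1 (0.87), and for Cxcr4 Fcgr1 (0.88), Ifit3 (0.83) and Trem2 (0.82). The pattern of Ccr2 was most like those of Tpgs1 (0.86), Fxyd5 (0.83) and Esd (0.81), and that of Ccr1 like those of Prtn3 (0.80), Clec4d (0.79) and Slc16a3 (0.78). Ccr9 went with Siglech (0.87), Klk1b27 (0.86) and Cd300c (0.85), and Ccr7 with Lad1 (0.81), Ifnl3 (0.79) and Slco5a1 (0.78). Cxcr2 went with Ltf (0.84), Ly6g (0.77) and Retnlg (0.76), Cxcr3 with H2-Ke6 (0.86), Tmsb15b1 (0.86) and Acap1 (0.84), and Cxcr6 with Tnik (0.94), Cish (0.94) and Lck (0.93). Among the receptors themselves the pairs most alike were Cx3cr1 with Cxcr4 (0.78), Ccr1 with Cx3cr1 (0.65) and Cxcr3 with Cxcr6 (0.55). These sums share libraries and, in part, droplets with macrophage RNA.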

How the data were processed

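The deposited values are counts, whole UMI numbers per gene and cell in 4 matrices, and the tools listed in the submitters' processing notes are Cell Ranger and Seurat, with mm10 as the build and neither versions nor roles. How barcodes were called and whether strand was used is not given in the sources used here. Total UMIs were 13749657 and 15619962 in the NASH libraries and 5513953 and 5684819 in the control libraries.

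The cell filter asked for 200 detected genes and no more than 10% of UMIs from mitochondrial genes, and putative doublets were removed by Scrublet score, at 0.8% per 1000 cells (20 and 28 in NASH, 14 and 17 in control). Scanpy 1.11.5 took 2000 variable genes without the 9 receptors, 30 components, 15 neighbours and Leiden resolution 1.0, with leidenalg 0.10.2. A cluster was named by the markers among its 10 leading genes. Haemoglobin genes were left out of these after the clusters were seen, before any comparison between diets. Clusters with no clear name stayed unnamed.

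Sums of UMIs by library and class were tested, where every library had 10 or more cells of the class, with edgeR 4.0.16 in R 4.3.3 (TMM, filterByExpr, robust quasi-likelihood test, Benjamini-Hochberg over all genes of the class, threshold 0.05), checked on simulated counts. NK cell or ILC1-like, cDC1-like, monocyte-like, neutrophil-like and plasma cell-like cells were tested under a minimum of 5 cells, added after the cell numbers were seen. The low-count filter of edgeR can pass a gene through the libraries of only the diet where it is higher. DESeq2 1.42.0 was an alternative. A floor is 3 counts, and intervals are exact at 95% (Poisson for sums, Clopper-Pearson for shares) and cover counting error only. With 2 libraries per diet the p-values come from the model's shared spread. Gene identifiers found in GENCODE vM21 numbered 27645 of 27998. Promoters of 8 of the 9 receptors were in the RefSeq table. Genes named were the 9 receptors, the 4 members of each list with the smallest p in macrophage-like cells, the 3 genes most like each receptor and 3 cluster leaders. Cxcl16, Ccl2 and Ccl7 were named after their values were seen. A gene that this rule would name is not reported here. The members and lists were chosen with earlier results of these data known.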

Additional observations from a re-analysis of the deposited data

Results flagged for a closer look

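The diet effect differed between cell classes for 3 pairs of class and receptor, by the interaction term of an edgeR model with the library as block, adjusted over all genes tested. Ccr2 rose more in macrophage-like than in plasmacytoid dendritic cell-like cells (difference of log2 fold changes 2.64, 4 of 4 alternatives that leave out a library still called), and more than in T cell-like cells (3.25, with 2 of 4 still called). Ccr9 fell in macrophage-like cells relative to plasmacytoid dendritic cell-like cells (-2.02, with 3 of 4 still called). In macrophage-like cells Ccr9 rests on 20 NASH and 34 control UMIs.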

How the results depend on the processing

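No receptor reversed its direction in a called result under the alternatives that could be fitted. Of the receptor fold changes, 429 kept their side of the threshold, 25 lost it and 16 gained it, and a class that could not be tested under a setting has no value there. The number of receptors called in B cell-like cells, 3, was 0 with Leiden resolution 2.0, with all deposited barcodes and with cells thinned to 1000 UMIs, and 1 without C1q-high cells. In NK cell or ILC1-like cells it was 0, and 1 without C1q-high cells. In cycling cells it was 2, and 1 with DESeq2 and with thinned cells. In endothelial-like cells it was 1, against 3 with no filter on low counts, 2 with Leiden resolution 2.0, with the receptors kept among variable genes and with all barcodes, and 0 with 3 times as many doublets removed, thinned cells or low C1q. In macrophage-like cells it was 5, and 3 with thinned cells. DESeq2 called 0 in neutrophil-like and plasma cell-like cells, where it gave the receptors no adjusted p. Leaving out 1 library gave 3 to 5 receptors in macrophage-like, 1 to 2 in endothelial-like, 0 to 2 in monocyte-like and neutrophil-like and 0 to 1 in plasma cell-like cells. It gave 2.92 to 3.74 for the Ccr2 difference from T cell-like cells and -2.60 to -1.29 for the Ccr9 difference from plasmacytoid dendritic cell-like cells. The causes were not tested. Thinned means in NASH were 26.3 CPM for Ccr1 in neutrophil-like (51.7 unthinned), 805 for Ccr2 and 280 for Cx3cr1 in monocyte-like (738 and 313) and 605 for Ccr9 in plasmacytoid dendritic cell-like cells (509). Thinning made monocyte-like cells the highest class for Ccr1 (58.6 CPM) and cycling cells that for Cxcr4 (52.8 CPM). With log2(CPM + 10), 17 of the 27 most similar genes were kept.

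Same-numbered libraries did not deviate together (correlation 0.00459 in macrophage-like and -0.156 in all kept cells), and nothing in the labels pairs them. The replicate block called 5 receptors in macrophage-like and 6 in all kept cells, as without it, and 9 against 21 genes in T cell-like, 633 against 390 in endothelial-like and 144 against 87 in plasmacytoid dendritic cell-like cells. Crossed pairing, added after seeing the data, called 4759 against 4218 genes in all kept cells.

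Counts over all genes moved by more than 1.5 times in several classes. In macrophage-like cells DESeq2 called 2825, the strict cell filter 2450 and thinned cells 2599 genes, against 4557. In all kept cells the strict filter gave 1973, thinning 2510 and leaving out NASH 1 or NASH 2 gave 1151 or 995, against 4218. In B cell-like cells (525) DESeq2 gave 243, Leiden 2.0 gave 42, all barcodes 13, thinning 94, low C1q 72 and leaving out NASH 1 or 2 gave 320 or 321. In cycling cells (1522) DESeq2 gave 528, the strict filter 241, thinning 329 and leaving out NASH 1 or 2 gave 960 or 1001. In endothelial-like cells (390) DESeq2 gave 145, more doublets removed 128, thinning 150 and leaving out control 1 gave 156. In T cell-like cells (21) DESeq2 gave 6, no filter 0, leaving out control 1 gave 0, kept receptors 12, the strict filter 7, all barcodes 40 and low C1q 8. In plasmacytoid dendritic cell-like cells (87) DESeq2 gave 42, the strict filter 57 and thinning 28. DESeq2 gave 0 in NK cell or ILC1-like (37), 33 in cDC1-like (77) and 32 in plasma cell-like cells (82). Leaving out 1 library gave 44 to 247 in monocyte-like (87) and 17 to 152 in neutrophil-like cells (65), and 18 in NK cell or ILC1-like cells without NASH 2. Scaling by library totals alone moved the median log2 fold change of all genes to -0.30 in all kept and cycling cells and 0.20 in B cell-like cells. Few UMIs limit Cxcr2, with 22 and 19 in kept NASH cells and 7 and 10 in kept control cells, and Ccr7 in control 1, with 1.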
